A study of Mus musculus with 6 samples.

Results

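Transfer RNA (tRNA) contacts were examined in 4 libraries of the MARIO assay, which ligates RNAs bound by the same protein through an RNA linker and reads the chimeric molecule as a first fragment (RNA1), the linker and a second fragment (RNA2). A read pair was a member if the type given to RNA1 or to RNA2 was tRNA. By this rule 87003 of 8319389 read pairs were members. ES-1 held 33324 of them among 3230403 read pairs, ES-2 held 40348 among 1312314, ES indirect held 9270 among 3302146 and MEF held 4061 among 474526. Where 4 values are listed without names below, they stand in this order of the libraries, and 3 values are those of the ES libraries. The ES libraries were made from the mouse embryonic stem (ES) cell line E14, strain 129/Ola, and MEF from embryonic fibroblasts of strain C57Bl/6. RNA was crosslinked to protein with ultraviolet light of 254 nm, except in ES indirect, where formaldehyde and EGS were used to fix proteins to one another as well. Per the labels, RNase I cut the RNA to about 1000 nt in ES-1 and ES-2 and to about 300 nt in MEF, and sonication cut it to about 1000 nt in ES indirect, while the study's methods give a range with longer fragments for ES-1. For removal of ribosomal RNA (rRNA), ES-1 and ES indirect were treated with a duplex-specific nuclease, while the GeneRead kit served for the remaining libraries. The ES replicates thus also differed in depletion and, per the methods, in fragment size, and the other groups had 1 library each, so no group was tested against another. The differences of MEF from the ES libraries in cell type, strain and fragment size cannot be told apart. Nor can those of ES indirect from ES-1 and ES-2 in crosslinking and in the way the RNA was cut. The cell type labels were checked on 10 marker genes each: ES cell markers had 1598, 450, 4198 and 57 read pairs and fibroblast markers 1155, 333, 802 and 848, so fibroblast markers led in MEF only.

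A tRNA is a short folded RNA that carries an amino acid to the ribosome. It is transcribed by RNA polymerase III with a leader and a trailer, which are cut away, and an enzyme then adds the bases CCA, which the mouse genes do not encode, to the trimmed 3′ end, where the amino acid is attached. Its acceptor stem joins the 5′ and 3′ ends and its anticodon reads the codon in the mRNA. The names in the files give the amino acid and then, except for methionine, a codon, as in tRNA-Gly-GGY for glycine, so 1 name stands for many gene copies. A scan of the NCBIM37 (mm9) genome for the tRNA fold found 423 tRNA-shaped loci with 239 distinct sequences, of which 4 were followed by CCA in the genome.

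The sequences below are those on which the results turn. The first is the body of the tRNA-Gly-GGY locus with most read pairs (chr11:68932296-68932366, minus strand, anticodon GCC, 1 of 8 identical loci), with its last 12 bases, which were used to recognise the mature 3′ end, in capitals; the genome goes on with cag, not CCA. The others are the most frequent RNA1 fragments that end in CCA under tRNA-Gly-GGY and tRNA-Ser-AGY, with the CCA in capitals. The first of these was read 64 times in ES-1 and 0 times in ES-2, the other 16 and 889 times.

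tRNA-Gly-GGY body: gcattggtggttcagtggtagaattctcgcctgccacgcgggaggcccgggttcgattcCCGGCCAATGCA

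tRNA-Gly-GGY fragment: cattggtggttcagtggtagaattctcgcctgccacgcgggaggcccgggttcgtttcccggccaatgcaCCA

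tRNA-Ser-AGY fragment: atcccatcctcgtcgCCA

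The next set shows a stretch of 18S rRNA on chr17:39984551-39984650 (plus strand, named SSU-rRNA_Hsa in the files, a copy of the ribosomal RNA repeat) and the last 12 bases of 4 tRNAs with CCA. The capitals mark the longest run at each tRNA's 3′ end that can form Watson-Crick pairs with the stretch, and the partner of the tRNA-Gly-GGY run in the rRNA.

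18S rRNA site: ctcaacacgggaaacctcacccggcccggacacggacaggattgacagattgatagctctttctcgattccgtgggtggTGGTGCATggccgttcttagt

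tRNA-Gly-GGY end: gccaATGCACCA

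tRNA-Gly-GGA end: gccaacGCACCA

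tRNA-Val-GTA end: gtggaACCACCA

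tRNA-Asp-GAY end: gacggggaGCCA

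The share of tRNA among read pairs was 1.03% (1.02 to 1.04) for ES-1, 3.07% (3.05 to 3.10) for ES-2, 0.281% (0.275 to 0.286) for ES indirect and 0.856% (0.830 to 0.882) for MEF, with 95% Wilson intervals in parentheses. The intervals cover counting error only, since amplified reads are not independent molecules. The share in ES-2 was above that in ES-1, and both were above ES indirect. The tRNA was mostly RNA1 in the ES libraries, with 90.6%, 91.7% and 72.8% of tRNA ends, against 50.2% in MEF. Distinct coordinates, that is read pairs left after those with the same positions and strands of both fragments were counted once, were 82.9%, 96.8%, 90.4% and 89.5% of the tRNA read pairs. In all 4 libraries this was above the share among the remaining read pairs, which was 71.4% in ES-1, 94.6% in ES-2 and 78.7% in MEF. Reads of 1 molecule that were placed at different identical tRNA loci would count as distinct. How many did was not tested, so distinct coordinates of tRNA can overstate the number of molecules.

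The fragments were short. RNA1 tRNA fragments had median lengths of 37, 26, 42 and 16 nt. A piece of at least 8 bases of the linker lay within 2.19%, 3.19% and 5.65% of them in the ES libraries and within 63.3% in MEF. They lay at a tRNA-shaped locus in 86.7%, 87.3%, 74.8% and 28.7% of cases. An anticodon was found in 356 of the 423 loci. For fragments at those, the amino acid in the name was that of the locus's own anticodon in 99.7%, 99.7%, 99.5% and 99.8%. Of the RNA1 tRNA fragments 85.1%, 91.5%, 83.8% and 92.1% were placed on the minus strand, although 204 of the tRNA-shaped loci lie on the plus strand and 219 on the minus strand. RNA1 fragments of mRNA were on the minus strand in 72.0%, 81.6%, 55.8% and 88.6%. The part of the placement among equal positions in this was not tested, and a position is therefore given below as the place the files state and not as the gene that was transcribed. Of the fragments ending in CCA that fitted a tRNA-shaped locus exactly, 91.1% in ES-1 and 91.5% in ES-2 fitted at least 2 loci, and 27.6% and 44.5% fitted loci of at least 2 anticodons.

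Most RNA1 tRNA fragments of the ES libraries reached the mature 3′ end. RNA1 tRNA fragments reached the last base of the tRNA body, with none, some or all of the CCA behind it, in 71.5% of ES-1 (70.9 to 72.0, 21595 of 30221) and 81.2% of ES-2 (80.8 to 81.6, 30129 of 37117). The share was 58.3% of ES indirect (57.1 to 59.4, 4024 of 6908) and 16.6% of MEF (15.0 to 18.2, 348 of 2101). The complete CCA was present in 35.5%, 44.2%, 43.5% and 7.62% of RNA1 tRNA fragments. The bases CC alone followed in 25.4% of ES-1, 9651 of the 37117 fragments of ES-2, 7.31% of ES indirect and 4.62% of MEF. A final C was read as the first base of the linker, so the split between CC, C and no tail rests on that reading, but CCA does not. Among mature ends, the complete CCA made up 49.7%, 54.4%, 74.6% and 46.0%. The genomic trailer, which marks a precursor, followed in 2.21%, 1.28%, 4.05% and 0.143%. ES indirect thus held a smaller share of CC ends, and among mature ends a larger share of complete ones, than either ultraviolet ES library.

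The mature end was reached in similar shares with each main class of partner in the ultraviolet ES libraries. With rRNA, mRNA and snoRNA as RNA2 it was reached in 71.7%, 71.7% and 69.3% of RNA1 tRNA fragments in ES-1, and in 81.2%, 81.9% and 79.3% in ES-2. In ES indirect the share was 63.5% (62.0 to 65.0) with rRNA, 53.2% (51.0 to 55.4) with mRNA and 22.3% (17.4 to 28.2) with tRNA, and these intervals did not overlap. Of the 224 pairs with tRNA, however, 201 joined the same name, and RNA1 of 82 of these lay at a tRNA-shaped locus. The mature ends sought were those of such loci, so the value with tRNA is not like the others. Counting read pairs with the same coordinates once gave 71.5%, 81.0% and 60.3% in the ES libraries.

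**Figure D1:**
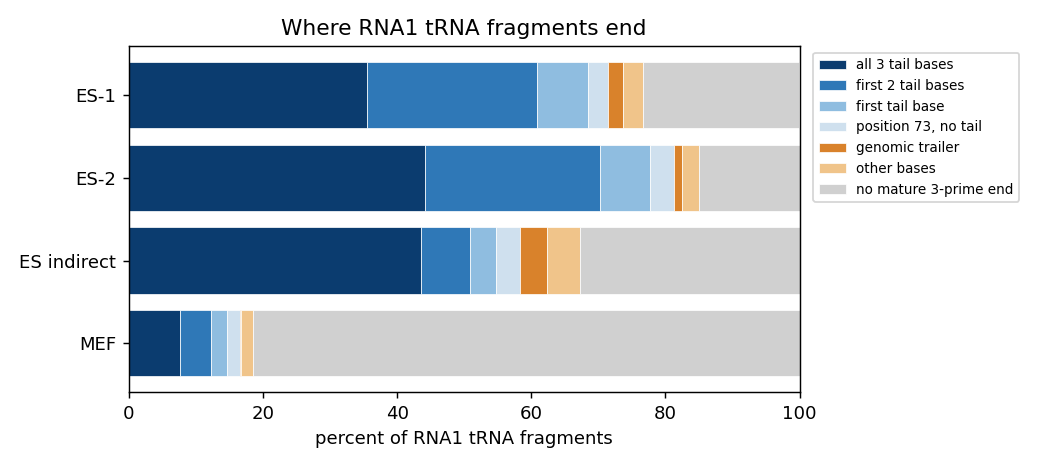
Share of RNA1 tRNA fragments (x axis, percent) by where they end, for each library (y axis); the 4 blue shades are mature ends with 3, 2, 1 or none of the tail bases, orange shades are fragments with other bases behind the tRNA body, and grey is fragments that do not hold the last 12 bases. Blue covers 71.5%, 81.2%, 58.3% and 16.6% of the 4 bars.

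The shares differed between tRNAs. Among the 10 leading names, the serine and valine names reached the mature end most often, tRNA-Ser-AGY in 94.2% of its RNA1 fragments in ES-1 and 95.6% in ES-2, tRNA-Ser-TCY in 93.0% and 95.6%, and tRNA-Val-GTY in 91.3% and 93.8%. The initiator tRNA-Met-i, which starts protein synthesis, reached it in 22.3% and 12.6%. tRNA-Met_, the name of elongator methionine tRNA, reached it in 46.2% and 79.7%, so the 2 ES libraries were far apart for it. Completeness of the tail also differed: CCA made up 34.0% and 39.4% of the mature ends of tRNA-Asp-GAY in ES-1 and ES-2 but 77.2% in ES indirect, and 66.9%, 63.0% and 75.0% of those of tRNA-Ser-TCY. For each of the 10 leading names the share of CCA among mature ends was higher in ES indirect than in ES-1.

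The opposite end showed at RNA2. RNA2 tRNA fragments started at position 1 of the tRNA, the base left by removal of the leader, in 25.8% of 3139, 27.2% of 3372, 23.6% of 2586 and 9.64% of 2084 cases. A genomic leader was present in 3, 5 and 12 fragments of the ES libraries. tRNA-Val-GTG started there in 200 of 305 RNA2 fragments in ES-1 (65.6%) and 72 of 178 in ES-2 (40.4%), and tRNA-Leu-CTY in 73 of 179 (40.8%) and 270 of 381 (70.9%). RNA1 fragments started at position 1 in 0.437% of ES-1 and 2.88% of ES-2.

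The single names with most read pairs in ES-1 and ES-2 together were tRNA-Glu-GAG_, tRNA-Asp-GAY, tRNA-Lys-AAG and tRNA-Gly-GGY. tRNA-Glu-GAG_ made up 9.26%, 8.07%, 10.1% and 19.5% of tRNA read pairs. tRNA-Asp-GAY made up 12.8%, 5.14%, 6.54% and 6.40%, tRNA-Lys-AAG 7.17%, 6.25%, 7.58% and 1.77%, and tRNA-Gly-GGY 7.90%, 4.35%, 4.72% and 6.03%. tRNA-Asp-GAY was thus the first name in ES-1 and the fifth in ES-2, while tRNA-Glu-GAG_ was first or second in each of the 4 libraries. The other names among the 10 with most read pairs in ES-1 and ES-2 were tRNA-Ser-AGY, tRNA-Lys-AAA, tRNA-Met-i, tRNA-Ser-TCY, tRNA-Met_ and tRNA-Val-GTY, at 2.13% to 4.74% in ES-1 and 3.25% to 6.74% in ES-2. Over the 59 names, Pearson's r was 0.92 on the log2 scale and Spearman's rho 0.90 between the shares of both ultraviolet ES libraries, and 0.61 and 0.60 between ES-1 and MEF. These correlations are across names that share a library and, in part, a sequence, and they carry no test.

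By amino acid, Lys, Ser, Gly and Leu held most read pairs in ES-1 and ES-2 together, and Ala was at rank 2 in ES indirect and rank 1 in MEF. Lys held 11.9%, 11.7% and 13.6% of tRNA read pairs in the ES libraries, at ranks 3, 2 and 1. Ser held 9.34%, 13.8% and 3.68%, at ranks 5, 1 and 11, so its rank in ES indirect was far lower. Asp was 2.48 times and Gly 1.85 times as high in ES-1 as in ES-2, while Met stood at 0.501 times and Ala at 0.587 times. Lys, Cys and Val differed little between ES-1 and ES-2, with ratios of 1.02, 1.02 and 0.981. The rarest was selenocysteine tRNA, with 91 and 38 read pairs there.

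**Figure D2:**
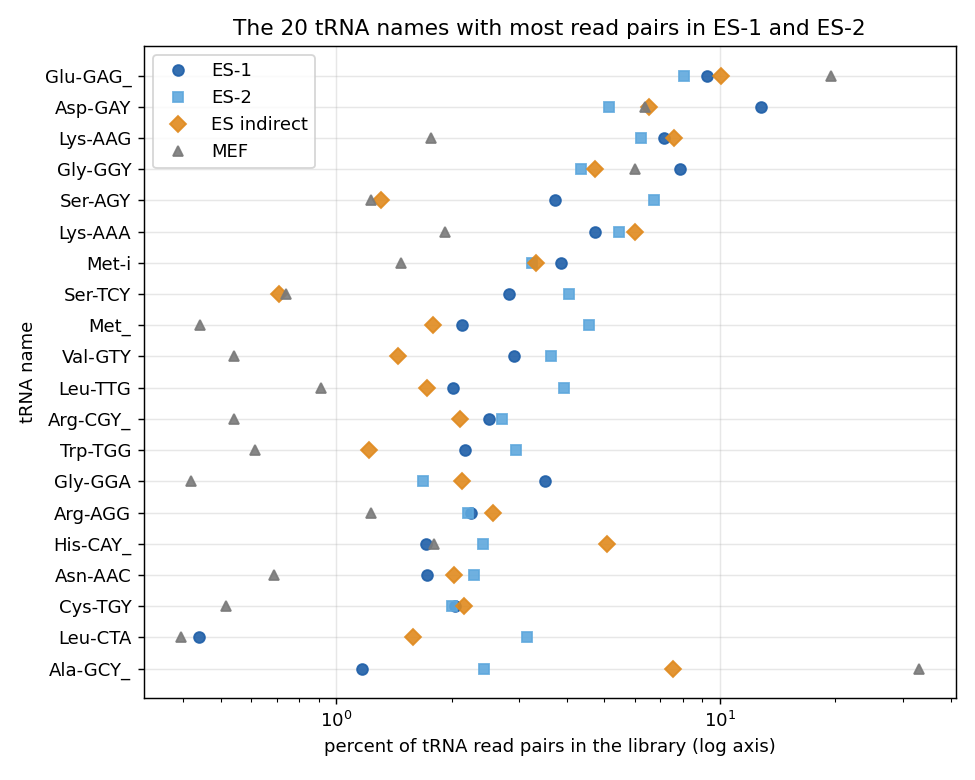
Share of the tRNA read pairs of a library (x axis, percent, log scale) held by each of the 20 tRNA names with most read pairs in ES-1 and ES-2 (y axis), with 1 symbol per library. tRNA-Glu-GAG_ lies at 8.07% or more in each library, and tRNA-Ala-GCY_ lies at 1.17% in ES-1 and 7.55% in ES indirect, with its highest point in MEF.

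Some leading positions were not tRNA genes by their fold. For tRNA-Lys-AAA 2192 of 3717 RNA1 fragments of ES-1 and ES-2 (59.0%) were placed at chr6:100421510-100421589 and for tRNA-Lys-AAG 1717 of 4439 (38.7%) at chr1:146071901-146071968, both on the minus strand, and neither held a tRNA-shaped locus. Fragments of tRNA-Ala-GCY_ lay at a tRNA-shaped locus in 22.4% of cases, and 705 of 1325 (53.2%) shared 1 place without such a locus. That place held 32 of 362 in ES-1 but 673 of 963 in ES-2, so the pooled share was carried by ES-2. The other names among the 10 were placed at tRNA-shaped loci in 83.1% or more of fragments. For tRNA-Ser-AGY 1404 of 3931 lay at chr19:5038304-5038385 and for tRNA-Val-GTY 1615 of 2251 at chr13:22107660-22107732, both on the minus strand and each with a sequence found at 1 locus. tRNA-Glu-GAG_ led at chr9:104310997-104311068 with 1358 of 5803 and tRNA-Asp-GAY at chr1:172967160-172967231 with 1047 of 6095, sequences found at 4 and 13 loci. The anticodon of the tRNA-Glu-GAG_ locus, TTC, is the Watson-Crick complement of the glutamate codon GAA and not of the GAG of the name.

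MEF consisted of unlike sequencing runs. Of its tRNA read pairs 2603 came from one flow cell and 1458 from the other, and tRNA was RNA1 in 676 and 1425 of them. tRNA-Ala-GCY_ made up 9.53% of the first and 74.9% of the second. Of the 1320 RNA1 fragments of MEF with that name 1308 held a piece of the linker, 986 were 16 nt long and 970 shared 1 position. Without these fragments 2741 tRNA read pairs remained in MEF, of which 410 (15.0%) had rRNA as partner. In the second flow cell 0 of 1458 tRNA read pairs had rRNA, which allows a share of up to 0.206%, while 40371 of the 168464 remaining read pairs there did; in the first it was 20.4% against 62.4%. In the flow cells of ES-2 and ES indirect the share with rRNA was 70.3% and 70.2%, and 48.6% and 52.0%. The tRNA values of MEF, those above included, therefore mix unlike runs.

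tRNAs were read mainly with rRNA in the ES libraries, and so were other RNAs. rRNA was at the other end of 70.9% (70.4 to 71.4), 70.3% (69.8 to 70.7), 50.5% (49.5 to 51.5) and 13.1% (12.1 to 14.2) of tRNA read pairs. With tRNA as RNA1, the partner was rRNA in 74.7%, 72.7%, 54.6% and 18.1%, against 69.1%, 69.8%, 49.9% and 44.4% for RNA1 fragments of other types. In the 3 ES libraries the tRNA value was thus 1.08, 1.04 and 1.09 times that of other RNAs, and in MEF 0.409 times. Messenger RNA followed 7.26%, 11.5%, 27.6% and 35.2% of RNA1 tRNA fragments, which was 0.819, 0.934, 0.770 and 1.49 times the share for other RNAs. Small nucleolar RNA (snoRNA), which guides rRNA modification, followed 11.1%, 4.81% and 1.98% in the ES libraries, at 0.892, 0.753 and 1.39 times the share for other RNAs. With tRNA as RNA2, the share with snoRNA was 38.8% for ES-1 and 15.0% for ES-2, against 36.0% and 14.8%. The share with snoRNA thus differed more between ES-1 and ES-2 than between tRNA and other RNAs of 1 library.

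**Figure D3:**
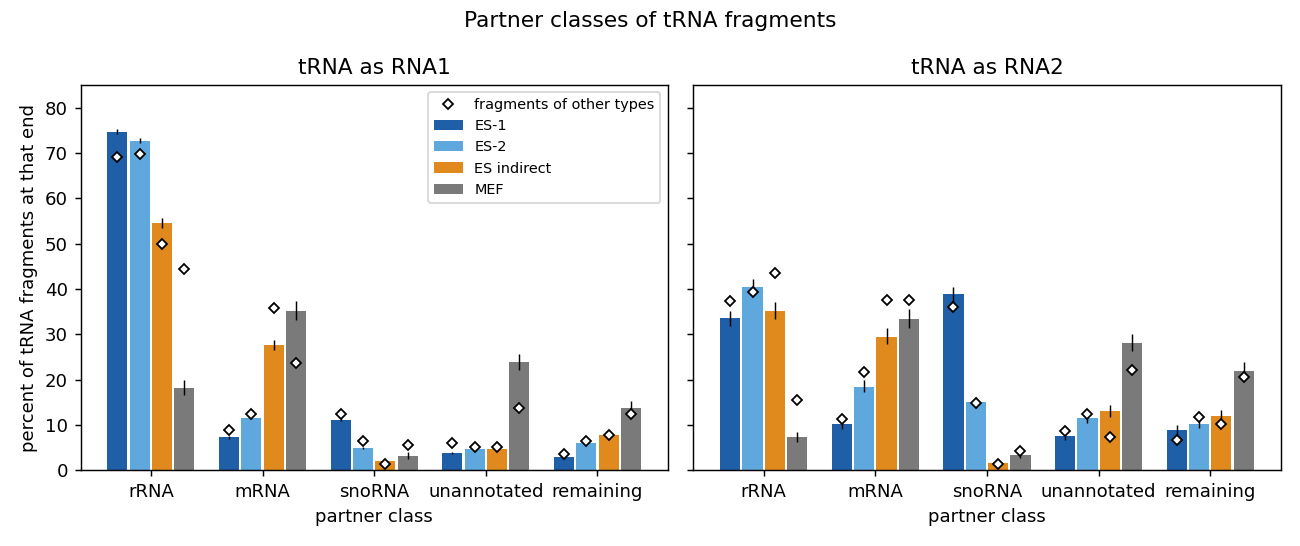
Share of tRNA fragments (y axis, percent) whose partner belonged to each class (x axis), with tRNA as RNA1 (left) and as RNA2 (right); bars are libraries, error bars are 95% Wilson intervals, and open diamonds give the share for fragments of other types at the same end. Pairs of tRNA with tRNA are not drawn. The bars of rRNA in ES-1 and ES-2 lie within 6 percentage points of their diamonds, and in MEF the bar is far below.

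The partners with most read pairs were common RNAs. The large subunit rRNA LSU-rRNA_Hsa had 14807 and 20029 read pairs with tRNA in the ultraviolet ES libraries, with 57 and 58 tRNA names, and the small subunit rRNA SSU-rRNA_Hsa 8634 and 8021. In ES indirect 2050 read pairs named the partner Rn45s, the rRNA precursor. These were 22.1% of its tRNA read pairs, against 43.0% for its read pairs without tRNA, where both ends were counted. The name had 0 read pairs in ES-1, ES-2 and MEF, with tRNA or without, so rRNA names are not alike between ES indirect and those libraries. Whether these fragments came from the precursor or from mature rRNA was not tested. Among mRNAs, Dnahc7b, an axonemal dynein heavy chain, had 184 and 44 read pairs in the ultraviolet ES libraries, the highest sum of both but not the highest count in ES-2. Dcun1d4, Suv420h2, Fry and Npepps had 11, 11, 4 and 5 read pairs in ES-1 but 204, 114, 109 and 93 in ES-2. Their fragments were short in ES-2, with medians of 19, 26, 17 and 22 nt. They lay at 6, 8, 11 and 9 positions, so 204 read pairs of Dcun1d4 with 34 tRNA names rested on 6 positions. Among snoRNAs, Snora81 had 253 and 179, Snora44 128 and 82, Snora74a 133 and 50, Snora73a 129 and 44 and Snora73b 118 and 55 read pairs in ES-1 and ES-2. The last pair are close copies of each other, so their split is uncertain. The spliceosomal U1 RNA had 145 and 47. Of 58 transcripts of the tRNA pathway (RNase P and MRP, CCA addition, export, modification, splicing, RNA polymerase III, synthetases and elongation factors), 8 were read with tRNA in ES-1 and 10 were in ES-2, while 56 and 54 were read in the far more numerous read pairs without tRNA. Counted at RNA2 alone, the list made up 0.0729% of partners of RNA1 tRNA in ES-1 (0.0481 to 0.110) and 0.0676% in ES-2 (0.0458 to 0.0998), against 0.143% and 0.0928% for RNA1 of other types, so it was lower with tRNA in ES-1 and within the interval in ES-2. Only 3 of them had at least 3 read pairs with tRNA in each library: in ES-1 these were Eef1a1, which delivers tRNA to the ribosome, with 10, the MRP RNA Rmrp with 9 and the tRNA exporter Xpot with 3, and in ES-2 Eef2, which moves the ribosome along the mRNA, with 10, Eef1a1 with 6 and Rmrp with 5. At RNA2, Rmrp was 0.00994% (0.00338 to 0.0292) and 0.0108% (0.00421 to 0.0278) of partners of RNA1 tRNA, against 0.0474% and 0.0241% for other RNA1, and Eef1a1 0.0331% (0.0180 to 0.0610) and 0.0135% (0.00578 to 0.0317), against 0.0213% and 0.0147%. The 3 read pairs of Xpot had 2 sets of coordinates.

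A single site of 18S rRNA stood apart for glycine tRNA. Of the RNA1 fragments of tRNA-Gly-GGY, RNA2 started within chr17:39984551-39984650 in 26.9% in ES-1 (25.2 to 28.7, 657 of 2439) and 35.1% in ES-2 (32.8 to 37.5, 555 of 1581). The share was 9.54% in ES indirect (6.72 to 13.4, 29 of 304), and MEF had 1 of 23. Both ultraviolet ES libraries thus lay above ES indirect for it, and MEF had too few fragments to place. The share of other tRNA names at the site was lowest of the 3 in ES indirect as well. Against the other names, tRNA-Gly-GGY stood at 6.52, 17.5 and 7.91 times in chr17:39984601-39984650, so ES indirect was not below ES-1 by this ratio. tRNA-Gly-GGG was at the site in 101 of 382 (26.4%, 22.3 to 31.1), 108 of 300 (36.0%, 30.8 to 41.6) and 6 of 31 (19.4%) in the ES libraries. tRNA-Gly-GGA was there in 62 of 886, 37 of 516 (7.17%) and 3 of 117 (2.56%). tRNA names other than glycine were at the site in 3.95%, 1.80%, 1.28% and 0.360%. RNA1 fragments of all other types were there in 3.29%, 1.30%, 0.845% and 0.462%. The intervals of tRNA-Gly-GGY and tRNA-Gly-GGG lay above those of every other tRNA name with at least 100 RNA1 read pairs in ES-1, where tRNA-Leu-CTA was next at 11.8% (7.29 to 18.6). Within flow cells the share of tRNA-Gly-GGY was 27.2% and 26.8%, 36.7% and 32.8%, and 9.76% and 9.39% in the ES libraries. The site was noticed in these data, so its values are a description.

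The read pairs at the site had many distinct coordinates. In ES-1 the 657 read pairs had 545 distinct coordinates, with 291 sets of RNA2 coordinates, 252 of tRNA coordinates and 11 tRNA-shaped loci. The 555 of ES-2 had 538 distinct coordinates. The leading tRNA-Gly-GGY locus is 1 of 8 identical ones, so these counts can overstate the number of different molecules. After read pairs with the same coordinates were counted once, the share of tRNA-Gly-GGY was 25.9%, 34.8% and 9.72% in the ES libraries. RNA2 had a median length of 56 nt in ES-1 and 40 nt in ES-2. It started most often at position 39984605 of chr17, in 116 of 657 in ES-1 and 80 of 555 for ES-2, and next at 39984604, in 102 and 71. Other tRNA names that reached the site started at the same bases, with 150 of 1046 at 39984605 in ES-1 and 94 of 623 in ES-2. A further group of starts at 39984621 held 70 of 555 in ES-2.

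**Figure D4:**
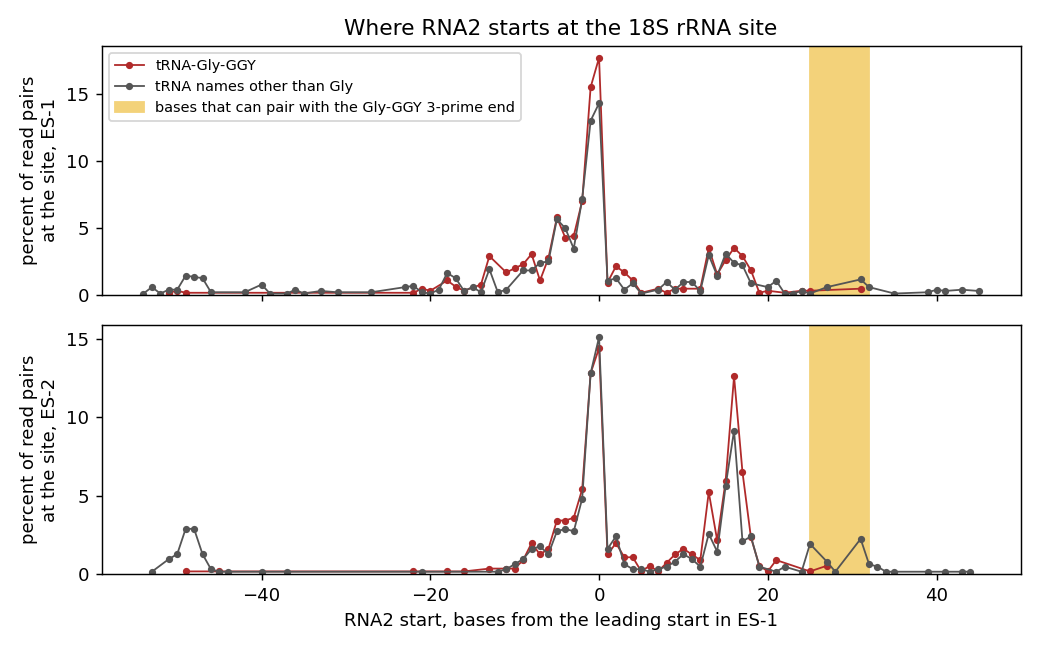
RNA2 starts at the 18S rRNA site (x axis, bases from the leading start in ES-1; y axis, percent of the read pairs at the site) in ES-1 (top) and ES-2 (bottom) for tRNA-Gly-GGY (red) and for tRNA names other than glycine (grey); the yellow band marks the 8 bases that can pair with the tRNA-Gly-GGY 3′ end. Both curves peak at the same start, at 17.7% and 14.3% in ES-1, 25 bases before the band.

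The share at the site differed with the end of the tRNA fragment. Fragments of tRNA-Gly-GGY ending in CCA were at the site in 371 of 862 in ES-1 (43.0%, 39.8 to 46.4) and 459 of 848 in ES-2 (54.1%, 50.8 to 57.5). Those ending in CC were there in 203 of 757 (26.8%, 23.8 to 30.1) and 58 of 370 (15.7%, 12.3 to 19.7), and those ending in C in 21 of 234 (8.97%) and 4 of 95 (4.21%). The intervals for CCA and CC did not overlap in either library, and the order CCA, CC, C was the same in both. Fragments without the mature end were at the site in 10.9% (8.55 to 13.8) and 14.2% (10.3 to 19.2), not below those ending in C. In ES indirect 23 of 102 fragments with CCA (22.5%), 0 of 28 with CC (0 to 12.1%) and 2 of 14 with C were at the site. For tRNA names other than glycine the share was 4.70% with CCA and 3.40% with CC in ES-1, and 2.14% and 1.52% in ES-2.

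The last 8 bases of mature tRNA-Gly-GGY, ATGCACCA, are complementary to TGGTGCAT at chr17:39984630-39984637, 25 bases behind the leading RNA2 start. tRNA-Gly-GGG has the same 12 last bases. In tRNA-Gly-GGA, with 62 of 886 at the site in ES-1, the run at the 3′ end that can pair is 6 bases, and in tRNA-Val-GTA, with a share of 4.76%, it is 7 bases. Among the 43 tRNA names with at least 100 RNA1 read pairs in ES-1 and a tRNA-shaped locus, this run was 3 to 5 bases in 29, which had shares of 0.524% to 7.69%, 6 bases in 11, with shares of 1.10% to 11.8% and a median of 6.80%, 7 bases in 1 and 8 bases in 2, the 2 glycine names at 26.4% and 26.9%. In ES-2 the median was 1.44% with 4 bases and 1.31% with 6 bases, so no rise from 4 to 6 bases was seen there, and the 2 glycine names stood at 36.0% and 35.1%. The 8 bases TCGATTCC are also identical in the tRNA and the site, and tRNA-Asp-GAY, at 3.55%, holds it too. A 7-base run of the site is complementary to the linker, which lies between RNA1 and RNA2 in every chimera. Per the methods it was ligated to RNA 5′ ends before RNA1 was joined to it. Of the 61 windows described next, 8 hold such a run. What these matches do in the assay was not tested.

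**Figure D5:**
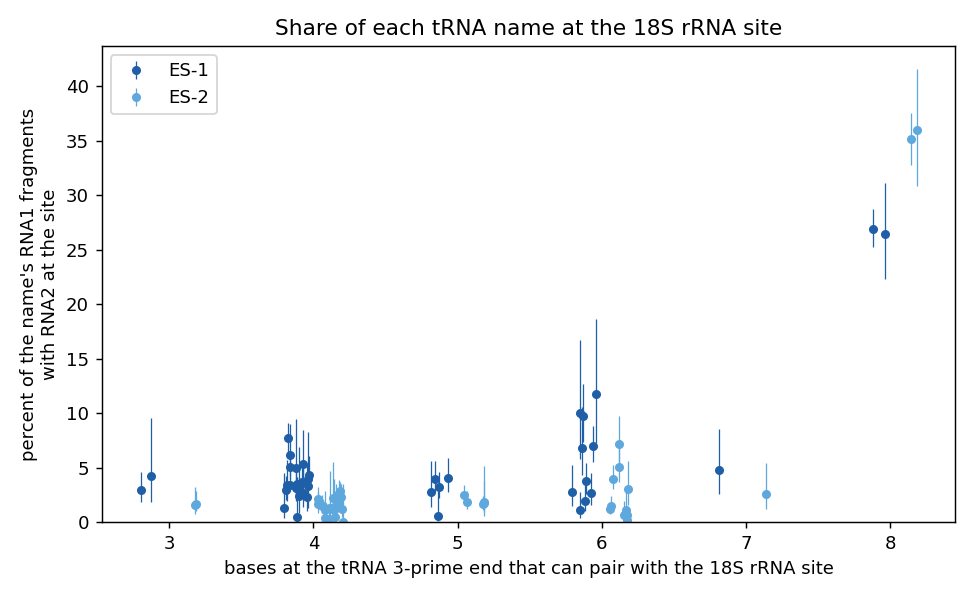
Share of each tRNA name's RNA1 fragments with RNA2 at the 18S rRNA site (y axis, percent) against the number of bases at the tRNA 3′ end that can pair with the site (x axis), in ES-1 (dark) and ES-2 (light); 1 point is 1 name, error bars are 95% Wilson intervals, and points are spread sideways for sight. Both names with 8 bases, tRNA-Gly-GGY and tRNA-Gly-GGG, lie at 26.4% or above, and all others at 11.8% or below.

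The same measure was taken for all tRNA names. RNA2 fragments were put into windows of 50 bases by their lowest genome coordinate, which is the start of RNA2 on the plus strand and its far end on the minus strand, and a name and window were considered if they had at least 10 read pairs in both ES-1 and ES-2. A combination was called if its share was at least 3 times that of the other tRNA names in both libraries. Of 196 combinations 15 were called (7.65%), 13 of them in rRNA and 2 in snoRNA, with 10 tRNA names, and 13 passed after read pairs with the same coordinates were counted once. For 5 of the 15 the minimum of 10 read pairs was by itself enough for the fold in both libraries, so their call was fixed by the filter: tRNA-Asp-GAY with SNORA57, tRNA-Ser-TCY with Snora44, tRNA-Gly-GGA at chr17:39983751-39983800, tRNA-His-CAY_, and tRNA-Leu-TTG at chr9:123371001-123371050. Without such combinations 10 of 191 were called (5.24%). A read pair was also present in ES indirect for 9 of the 15, and 6 passed the fold there. No minimum was set in that library, and the 6 rested on 26, 6, 5, 3, 3 and 1 read pairs. The same count is not given for the combinations that were not called, so no share stands beside it.

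Leucine and arginine tRNAs had sites in large subunit rRNA. tRNA-Leu-TTG was read with the LSU-rRNA_Hsa copy at chr6:49186451-49186500 (minus strand) in 23 of 595 in ES-1 (3.87%) and 149 of 1498 in ES-2 (9.95%), against 0.764% and 0.626% of the other names. It was read with the copy at chr9:123371001-123371050 in 25 of 595 and 25 of 1498 (1.67%), against 0.402% and 0.0958%. From the leading RNA2 starts of both windows the chr6 and chr9 copies hold nearly the same 40 bases, so they are copies of 1 rRNA stretch. tRNA-Arg-CGY_ was at chr16:17222451-17222500 in 18 of 818 (2.20%) and 59 of 1056 (5.59%), 3.89 and 8.13 times the other names. The 40 bases from the most frequent RNA2 start among the read pairs of the chr6 window, a start that lies outside the window on this strand, are shown with the tRNA's own end, the capitals marking the 10 bases that can pair.

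LSU rRNA at chr6:49186470-49186509, minus strand: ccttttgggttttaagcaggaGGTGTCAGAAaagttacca

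tRNA-Leu-TTG end: cTTCTGACACCa

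A copy of 18S rRNA on another chromosome was also called for tRNA-Gly-GGY, at chr1:56839151-56839200 (minus strand), with 26 of 2439 (1.07%) and 33 of 1581 (2.09%) against 0.299% and 0.531% of the other names. From its leading RNA2 start this copy holds nearly the same bases as the chr17 site, and TGGTGCAT is the same in both. It is thus the same 18S rRNA stretch on another copy and not a further site. In the copy on chr17, tRNA-Arg-CGG was at chr17:39983651-39983700 in 11 of 337 (3.26%) and 29 of 395 (7.34%), 6.63 and 8.64 times the other names, and tRNA-Gly-GGA at chr17:39983751-39983800 in 13 of 886 (1.47%) and 11 of 516 (2.13%). tRNA-His-CAY_ was at chr17:39983851-39983900 in 11 of 515 (2.14%) and 12 of 919 (1.31%), and tRNA-Met_ at chr17:39984651-39984700 in 26 of 693 (3.75%) and 89 of 1800 (4.94%). The snoRNA windows paired tRNA-Ser-TCY with Snora44, in 17 of 916 (1.86%) and 10 of 1612 (0.620%), and tRNA-Asp-GAY with SNORA57, in 13 of 4146 (0.314%) and 11 of 1931 (0.570%). Counting read pairs with the same coordinates once left tRNA-Ser-TCY with Snora44 at 2.90 times the other names in ES-2, below the limit, and 1 of the 3 tRNA-Leu-TTG windows at 2.97 times in ES-1. A run of at least 7 bases within the last 12 of the mature tRNA that can pair with the window and 50 bases on either side was present in 11 of the 15 called combinations (73.3%) and in 18 of the 181 others (9.94%). The 15 are not independent, since 5 hold the same glycine 3′ end and 3 the same leucine 3′ end. Each of these groups lies on copies of 1 rRNA stretch. Those of tRNA-His-CAY_ and of tRNA-Leu-TTG at chr9:123371001-123371050, whose call was fixed by the filter, are among the 11 with a run within the last 12 bases. The measure was chosen after the glycine site was seen, and that site is among the 11 as well.

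Pairs of tRNA with tRNA were few in the ultraviolet ES libraries. RNA1 tRNA was followed by tRNA in 0.119%, 0.380%, 3.24% and 5.90%, against 0.0970%, 0.253%, 0.0717% and 0.415% for RNA1 of other types. ES-1 had 36 and ES-2 had 141 (0.108% and 0.349% of tRNA read pairs), of which 13 and 19 joined fragments of the same name. ES indirect had 224, of which 201 were of the same name, and MEF 124, of which 108 were. Both fragments of a same-name pair lay at a tRNA-shaped locus in 9 of 13, 14 of 19, 77 of 201 and 1 of 108. Most same-name pairs of ES indirect and MEF were thus placed, at 1 end or both, outside such loci. The same-name share of tRNA read pairs was 0.0390% in ES-1 (0.0228 to 0.0667), 0.0471% in ES-2 (0.0302 to 0.0735), 2.17% in ES indirect (1.89 to 2.49) and 2.66% in MEF (2.21 to 3.20). The intervals of ES indirect and MEF lay above those of ES-1 and ES-2, and their pairs were placed differently. In ES indirect 146 of 201 were on 1 chromosome, 72 overlapped and 63 more lay within 200 bases, and all 135 of these were on the same strand. tRNA-Ala-GCY_ led with 62 read pairs on 13 sets of coordinates, for example 13 read pairs of chr10:89254508-89254597 with chr10:89254595-89254694, both plus strand, which overlap at their ends. In MEF 71 were on 1 chromosome, of which 62 overlapped, and all 62 were on opposite strands. tRNA-Glu-GAG_ held 60 of the 108, 25 of them on 1 set of coordinates at chr13:18307111-18307134 with chr13:18307101-18307134, and 106 of the 108 came from the second flow cell. In ES-1 and ES-2 the leading same names were tRNA-Glu-GAG_ with 4 and 6 and tRNA-Lys-AAG with 3 and 6, and 8 of 13 and 16 of 19 joined different places.

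Pairs of RNAs were tested by the one-sided Fisher's exact test on read pairs between different RNAs other than rRNA, with Benjamini-Hochberg adjustment over all pairs seen. A call needed 3 or more read pairs and an adjusted p below 0.05. In ES merged, which is ES-1 and ES-2 together, 14452 of 227775 pairs of all types were called (6.34%). Of 9972 pairs with a tRNA 408 were called (4.09%), and 3734 had an unadjusted p under 0.05. Counting read pairs with the same coordinates once turned the order, with 1.33% of tRNA pairs called against 0.895% of all pairs. The test compares read pairs, pooled over ES-1 and ES-2, and not replicates, and adjustment covers the pairs that were seen and not all that could form. In single libraries 370 of 3999 tRNA pairs were called in ES-1, against 10.5% of all pairs, 81 of 6859 in ES-2, against 1.27%, 86 of 2718 in ES indirect, against 6.81%, and 62 of 1520 in MEF (4.08%), against 2.88%; on fragments of at least 20 nt without linker the MEF count was 2 (0.820% against 1.10% of all pairs). Pooling takes no account of library, and tRNA had a larger share in ES-2. With ends counted within each library, an alternative chosen after the data were seen, 387 tRNA pairs were called (3.88%, against 6.30% of all pairs), and 366 of the 408 were among the called. The partners of the 408 were mRNAs in 231 (56.6%) and snoRNAs in 116 (28.4%), against 54.9% and 27.2% of the 9972 tested. Among the 1457 tested pairs with at least 3 read pairs, which a call needs, mRNAs were 357 (24.5%) and snoRNAs 795 (54.6%). Against these, mRNA partners were more frequent and snoRNA partners less frequent among the called. Of the 408, 71 (17.4%) had a read pair in both ES libraries, against 12.1% of the 14044 called pairs without tRNA, and 5 (1.23%) were called in both, against 2.04%. Counting read pairs with the same coordinates once left 132 (32.4%) called, against 13.2%, and 27.5% of the 408 rested on 1 set of coordinates. This count keeps apart reads of 1 molecule placed at different identical tRNA loci, and the part of that in the values of tRNA pairs was not tested. In ES indirect 15 had a read pair and 0 were called, and in MEF 6 had a read pair and 0 were called, while 355 and 69 of the called pairs without tRNA (2.53% and 0.491%) were called there.

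The 5 pairs called in both ES libraries each joined a tRNA with a snoRNA, the partner of 116 of the 408. tRNA-Lys-AAG with Snora74a had 29 read pairs from ES-1 and 13 from ES-2, 1.83-fold the expected number (Fisher's exact test, adjusted p = 0.0029). tRNA-Trp-TGG with SNORA9 had 20 and 10, 3.24-fold the expected 9.26 (Fisher's exact test, adjusted p = 1.7e-06). tRNA-Cys-TGY with snoU90 had 19 and 3, against 1.99 expected (Fisher's exact test, adjusted p = 6.5e-14). tRNA-Met-i with SNORD38 had 11 and 3, 9.45-fold, and tRNA-Asp-GAY with snoZ40 had 7 and 4, 5.62-fold. These had 31, 27, 13, 7 and 10 distinct coordinates, and 39, 8, 14, 14 and 7 of their read pairs had both fragments of at least 20 nt without linker. When read pairs with rRNA were counted in the ends, the pair with Snora74a (adjusted p = 1.0) and the pair with snoZ40 (adjusted p = 0.071) were no longer called by Fisher's exact test.

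The called pair with most read pairs was tRNA-Glu-GAG_ with Dcun1d4, with 4 in ES-1 and 78 in ES-2, 9.51-fold the expected 8.62, but 1 of its 82 read pairs had both fragments of at least 20 nt without linker, and it was not called on such read pairs. tRNA-Lys-AAG, tRNA-Lys-AAA and tRNA-Leu-CTA with GC_rich repeats had 79, 41 and 19 read pairs at 1.91, 1.46 and 2.02 times the expected number, with 69, 30 and 18 of them in ES-2. That expected number is from the pooled libraries, and GC_rich as well as tRNA had a larger share in ES-2. With ends counted within each library the 3 pairs stood at 1.31, 0.871 and 0.952 times the expected number, and only that of tRNA-Lys-AAG was called (Fisher's exact test with library as a stratum, adjusted p = 0.037, 0.94 and 0.75). tRNA-Ser-TCY with Snora44 had 17 and 10, tRNA-Cys-TGY with U2, an snRNA of the spliceosome, 20 and 2, and tRNA-Lys-AAG with Suv420h2, a histone methyltransferase mRNA, 4 and 17. The pair with Suv420h2 was not called within libraries either (exact test, adjusted p = 0.082), and that of tRNA-Glu-GAG_ with Dcun1d4 stood at 6.34 times the expected number there. With rRNA read pairs counted in the ends, the pairs of tRNA-Lys-AAG, tRNA-Lys-AAA and tRNA-Leu-CTA with GC_rich (adjusted p of Fisher's exact test 0.26, 1.0 and 0.85), of tRNA-Ser-TCY with Snora44 (1.0) and of tRNA-Cys-TGY with U2 (0.13) were not called. Those of tRNA-Lys-AAA and tRNA-Leu-CTA also lost the call with coordinates counted once, and those of tRNA-Ser-TCY and tRNA-Leu-CTA on long linker-free fragments. Of these 7 pairs, 5 were called in 1 of the ES libraries taken singly, and those of tRNA-Lys-AAG with Suv420h2 and tRNA-Leu-CTA with GC_rich were called in the merged data only.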

How the data were processed

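MARIO libraries of mouse ES cells and fibroblasts were analysed, and brain libraries were not used here. The authors removed PCR duplicates by position and random barcode, found the linker, split each chimera and mapped both parts uniquely to mm9. The submitters' processing notes name TopHat2 2.1.1 and NCBIM37. The deposited files hold no abundance values: a line is 1 read pair with coordinates, sequence, RNA type and name of both fragments, so the other columns used are positions per the file headers and labels, and read pairs were counted by lines.

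Groups came from the sample labels. A tRNA-shaped locus needed a body of 70 to 112 bases and a score of at least 18 of 19 in a scan for the tRNA fold. The mature 3′ end was found by the last 12 bases of these loci. Linker pieces were runs of 8 bases. Shares carry 95% Wilson intervals, and a count of 0 a limit of 3 counts. Pairs of RNAs within 2000 bp were left out of Fisher's exact test. Read pairs in the text numbered 474526 to 3302146 per library. Named tRNAs were the 10 with most read pairs in ES-1 and ES-2 and the first 3 of each other library. Named pairs were the 10 called pairs with most read pairs present in both ES libraries and all called in both. The members and lists were chosen with earlier results of these data known, and the 18S rRNA site, the windows and the pairing runs after their values were seen. Alternatives covered duplicates, fragment length, sequence match, flow cell, fragment end, call limits and each ES library left out. ES-1 and ES-2 are labelled as replicates, with no word on whether separate cultures were used, so their spread may be technical. Scripts were tested on simulated data and used Python 3.11.15, pandas 2.3.3, numpy 2.4.6, scipy 1.17.1, pysam 0.24.0 and matplotlib 3.10.9.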

Additional observations from a re-analysis of the deposited data

Results flagged for a closer look

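Mature tRNA ends also lay in RNA1 fragments that the files give another type. Above they were counted only as fragments of those other types, in the values for RNA1 of other types and in Fisher's exact test. A fragment with the last 12 bases of a tRNA and CCA behind them was typed other than tRNA in 12361, 14929, 879 and 163 cases, in the order of the libraries above. These were 53.5%, 47.7%, 22.6% and 50.5% of all RNA1 fragments with such an end. LTR retrotransposon names held 34.1%, 44.8%, 43.5% and 44.2% of them, protein-coding genes 23.5%, 24.6%, 24.3% and 22.1%, and unannotated fragments 29.7%, 18.1%, 18.7% and 21.5%. The LTR name with most in ES-1 and ES-2, LTRIS5, had 469 and 1036, of which 465 and 1029 had an end that could not be given to 1 anticodon. Such ends also led for RLTR6_Mm, for MURVY-int and, with 399 of 530 in ES-2, for MMERGLN-int. RLTR1B-int had its leading tRNA in 14 of 29 in ES indirect. Some other names had mainly the end of a single tRNA. In ES-1, RLTR45-int had 349 such fragments, 340 of them with the end of the lysine tRNA of anticodon CTT, and RLTR44-int had 268 in ES-1 and 548 in ES-2, all with the end of the isoleucine tRNA of anticodon AAT. In ES indirect, ETnERV-int had 32, all with the end of the lysine tRNA of anticodon TTT. As background, retroviral elements hold a primer binding site complementary to a tRNA 3′ end. Which of these fragments came from tRNA was not tested, so the tRNA shares above count only fragments typed tRNA.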

How the results depend on the processing

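No paired analysis was possible because ES-1 and ES-2 form 1 group and the other groups used have 1 library each. Of 177 alternative values, 41 of main results stayed close to the reported one, 47 moved, 4 were weaker and 1 was stronger. For named pairs 60 values kept their call, 15 lost it and 9 lost it at less than the expected number. For shares, close meant within 1 standard deviation of the ES mean, or within the Wilson interval for a single library. Leaving out either ES library always meets that limit, so those ES shares could not count as moved. The share of tRNA pairs called against that of all pairs turned from 4.09% against 6.34% to 1.33% against 0.895% in ES merged with coordinates counted once, and from 4.08% against 2.88% to 0.820% against 1.10% in MEF with long linker-free fragments. The tRNA share of ES (mean 2.05%) was 0.177% for RNA2 ends. For ES indirect (0.281%) it was 0.506% with same coordinates counted once, 0.242% with long linker-free fragments, 0.259% with sequences that matched the genome, 0.209% and 0.0783% for RNA1 and RNA2 ends, and 0.271% and 0.289% within flow cells. For MEF (0.856%) the same settings up to the ends gave 0.972%, 0.667%, 0.785%, 0.443% and 0.439%. The same-name share of ES (mean 0.0431%) was 0.0514% with long linker-free fragments, 0.489% for RNA2 ends and 0.0564% within the first flow cell. For ES indirect (2.17%) it was 1.55% with coordinates counted once, 2.71% with long linker-free fragments, 2.91% and 7.77% for RNA1 and RNA2 ends, and 2.63% and 1.79% within flow cells. For MEF (2.66%) these gave 2.20%, 14.1%, 5.14%, 5.18%, 0.0768% and 7.27%. The share with rRNA of ES (mean 70.6%) was 71.7% with coordinates counted once, 73.1% with long linker-free fragments, 70.1% with matching sequences, and 73.7% and 37.0% for RNA1 and RNA2 ends. For ES indirect (50.5%) it was 52.9%, 55.6%, 54.6% and 35.2% without the setting on sequences, and 48.6% and 52.0% within flow cells. For MEF (13.1%) it was 14.6%, 42.0%, 11.8%, 18.1% and 7.25%, and 20.4% and 0% within flow cells. The 408 called tRNA pairs became 133 with coordinates counted once, 81 to 370 with either ES library left out (81 without ES-1), 826 and 146 with at least 2 and 5 read pairs, and 267 with rRNA read pairs counted in the ends. Spearman's rho of the shares of the 59 tRNA names between ES-1 and ES-2 went from 0.90 to 0.91 with matching sequences. Of the 12 named pairs 3 kept their call in every setting. Some fell below the expected number, with adjusted p of Fisher's exact test: tRNA-Lys-AAG with Snora74a with rRNA counted (0.836 times, p = 1.0), tRNA-Lys-AAA with GC_rich without ES-1 (0.706, p = 1.0, but 0.026 without ES-2), with rRNA counted (0.769, p = 1.0) and within libraries (0.871, p = 0.94), tRNA-Ser-TCY with Snora44 on long linker-free fragments (0.898, p = 0.79) and with rRNA counted (0.819, p = 1.0), and tRNA-Leu-CTA with GC_rich without ES-1 (0.923, p = 0.74, and 0.51 without ES-2), with rRNA counted (0.946, p = 0.85) and within libraries (0.952, p = 0.75). Settings for the 18S rRNA site, mature ends and windows were chosen after the data were seen, and 13 of the 15 windows were called with coordinates counted once. The causes of these changes were not tested.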
